A study of Mus musculus with 6 samples.

Results

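Slc7a11, Nfe2l2, Nqo1, Gclc, Gclm, Txnrd1, Srxn1 and Prdx1 were followed as the cystine uptake and antioxidant NRF2 genes of the mouse liver during colorectal cancer metastasis. These 8 genes were chosen by symbol from the 31253 features of 6 single-cell libraries, and every one of the 8 was found. Their molecules were counted as unique molecular identifiers (UMIs), which tag single transcripts, and were summed per library and per cell class. The libraries came from 3 groups of livers with 2 libraries each: control livers, livers taken before metastases formed (pre-metastatic) and livers carrying macro-metastases, the latter 2 from an orthotopic mouse model of colorectal cancer. The labels give the control genotype as ctrl and list CT26-GFP cells, murine colon carcinoma cells with a fluorescent tag, for all 6 libraries, controls included. No strain, age, sex or time point is given. The livers were digested with collagenase and freed of erythrocytes and dead cells before capture on the BD Rhapsody system, so levels describe the cells that survived this handling. Nothing states that the 2 libraries of a group are separate animals, and p-values therefore measure only the spread between these libraries, which may be technical.

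NRF2, the transcription factor encoded by Nfe2l2, is normally held by KEAP1 and degraded. Oxidants and electrophiles release it, and it then pairs with small MAF proteins on antioxidant response elements of genes for glutathione synthesis, thioredoxin reduction and quinone detoxification. Slc7a11 encodes the light chain of the cystine and glutamate exchanger, whose cystine feeds glutathione synthesis, and it is also a known target of ATF4, the factor of the amino acid and integrated stress responses. Neutrophils and macrophages make oxidants in large amounts, and hepatocytes are the main producers of glutathione in the body.

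Of 71908 barcodes, 66935 were kept and 58023, or 86.7% of those kept, entered a cell class by a marker gate that contains none of the 8 genes. A class name stands for barcodes whose RNA is like that cell type. The libraries held between 41914149 and 90819751 UMIs, and the macro-metastatic libraries were the deepest, with medians of 4605 and 3269 UMIs per kept barcode against 2177 to 2686 in the other 4. Pairs of libraries shared between 126 and 222 barcodes, at most 1.87% of the smaller library. The make-up of the suspension moved strongly with the groups. Neutrophils numbered 113 and 221 barcodes in control, 1339 and 886 at the pre-metastatic stage and 3512 and 3575 with macro-metastases. Hepatocytes numbered 700 and 582, then 915 and 673, then 9 and 94. The gate for colon epithelium found 2 barcodes in all libraries, so the tumour cells themselves are not described here. In the 10 classes with at least 20 barcodes in every library, levels were compared as CPM, the UMIs of a gene scaled to a fixed total of the UMIs of the class.

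The promoters of 3 genes are shown first, because the known regulators NRF2 and ATF4 bind different letters: Slc7a11, with matches to the ATF4 type of element, and Srxn1 and Prdx1, with matches to the NRF2 and AP-1 types, of which Srxn1 was called in the comparisons and Prdx1 was not. RefSeq promoters of GRCm38.p6, from 250 bases before to 50 bases after the gene start, were matched for 7 of the 8 genes in 9 windows. They were searched on both strands for the amino acid response element TGATGCAAA, for the core of the antioxidant response element, TGACNNNGC, and for the AP-1 site TGAGTCA. The 250 bases before the start are printed 5′ to 3′ on the strand of the gene, with matches in capitals.

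Slc7a11, chr3:50443614-50443863, minus strand: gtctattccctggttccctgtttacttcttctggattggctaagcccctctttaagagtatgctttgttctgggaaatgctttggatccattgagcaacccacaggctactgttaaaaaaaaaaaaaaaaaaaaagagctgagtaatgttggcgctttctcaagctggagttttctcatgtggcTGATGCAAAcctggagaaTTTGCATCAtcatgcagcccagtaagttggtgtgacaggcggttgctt
Srxn1, chr2:152105274-152105523, plus strand: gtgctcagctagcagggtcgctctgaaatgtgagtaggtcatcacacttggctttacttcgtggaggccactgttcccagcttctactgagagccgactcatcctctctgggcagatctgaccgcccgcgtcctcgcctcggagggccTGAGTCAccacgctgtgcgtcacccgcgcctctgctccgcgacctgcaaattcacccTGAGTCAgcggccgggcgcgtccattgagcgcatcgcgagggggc
Prdx1, chr4:116685349-116685598, plus strand: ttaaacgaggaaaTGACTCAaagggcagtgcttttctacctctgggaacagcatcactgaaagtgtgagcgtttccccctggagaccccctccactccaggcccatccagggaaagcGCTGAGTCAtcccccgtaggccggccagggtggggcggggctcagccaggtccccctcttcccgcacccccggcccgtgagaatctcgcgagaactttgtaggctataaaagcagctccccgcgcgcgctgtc

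The Slc7a11 window held TGATGCAAA on both strands, beginning 66 and 48 bases before the start, and no match to the other 2 motifs. Of 32851 promoter windows, 89 held this motif, or 0.271%. The Srxn1 window held TGAGTCA 102 and 45 bases before the start, and TGACNNNGC on the opposite strand 28 bases after it. The Prdx1 window held TGAGTCA 131 bases before the start, overlapping a TGACNNNGC match on the opposite strand, and a further TGAGTCA match on the opposite strand 237 bases before it. Nfe2l2, Gclm and 1 of 3 Txnrd1 windows held a TGACNNNGC match, and Nqo1 held none. TGACNNNGC was present in 12.4% and TGAGTCA in 5.20% of all windows. These matches are descriptions of letters and say nothing on which factor was bound.

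Slc7a11 was highest in neutrophils at every stage. The gene lies on chromosome 3 at 49892526 to 50443614 on the minus strand (mm10), where 5 annotated non-coding genes and pseudogenes overlap its span. In neutrophils it stood at 398 and 615 CPM in control, 564 and 850 at the pre-metastatic stage and 585 and 786 with macro-metastases. The ranges of the 3 groups overlapped. The log2 fold change of macro-metastatic against control was 0.52 (SE 0.29), which edgeR's quasi-likelihood test with Benjamini-Hochberg adjustment did not call (adjusted p = 0.289), and with no filter on low counts it was 0.71 (adjusted p = 0.038). The lowest neutrophil value exceeded the highest value of every other fitted class in each group.

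Within neutrophils, the barcodes that scored highest on mature markers carried the transcript. They held 414 and 632 CPM in control, 634 and 866 at the pre-metastatic stage and 700 and 805 with macro-metastases. Barcodes scoring highest on granule genes of immature neutrophils held 21.8 and 170 CPM at the pre-metastatic stage and 84.3 and 158 with macro-metastases, from 47 and 8, then 227 and 43 barcodes. The immature barcodes were lower in each of these 4 libraries, and the controls held only 2 such barcodes each. After every barcode was thinned to 1000 UMIs, 26.3% and 39.0% of control neutrophils carried a Slc7a11 UMI, 36.5% and 42.5% of pre-metastatic ones, and 42.8% and 47.3% of macro-metastatic ones. These shares left out 33 and 57, 270 and 350, and 76 and 133 shallower barcodes. Without thinning, the shares were 28.3% and 36.2%, 42.9% and 45.6%, and 62.3% and 65.8%. B cells, which gave the background, reached 0.873% and 1.81% in macro-metastatic libraries after the same thinning.

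**Figure D1:**
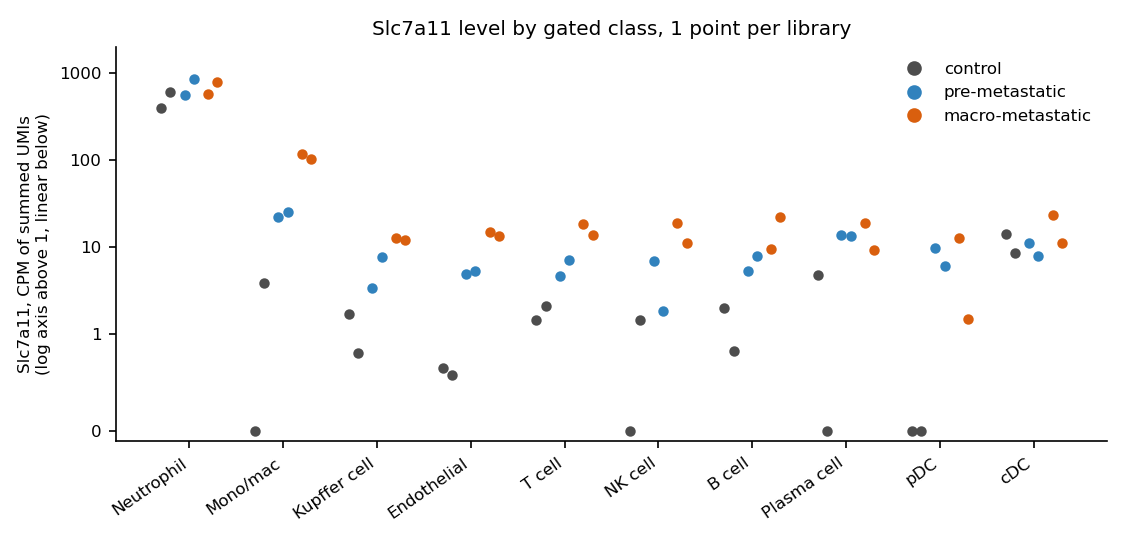
Slc7a11 level in CPM of summed UMIs (vertical axis, logarithmic above 1 and linear below) in 10 gated classes (horizontal axis); each point is 1 library, coloured by group. Neutrophils lie between 398 and 850 CPM in all 6 libraries, and monocytes and macrophages rise from at most 3.88 CPM in control to 118 and 103 CPM in macro-metastatic libraries.

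Over all kept barcodes, Slc7a11 stood at 3.46 and 7.46 CPM in control, 32.4 and 28.2 at the pre-metastatic stage and 100 and 87.3 with macro-metastases. Neutrophils held 48.3% (95% Wilson interval 39.5 to 57.2) and 70.7% of all Slc7a11 UMIs in control, 76.0% and 65.7% at the pre-metastatic stage and 62.4% and 74.97% with macro-metastases. Their share of the UMIs of all genes was 0.420% and 0.858%, then 4.36% and 2.18%, then 10.7% and 8.32%. In a sum over the whole suspension, more cells of a type and more RNA per cell cannot be told apart.

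**Figure D2:**
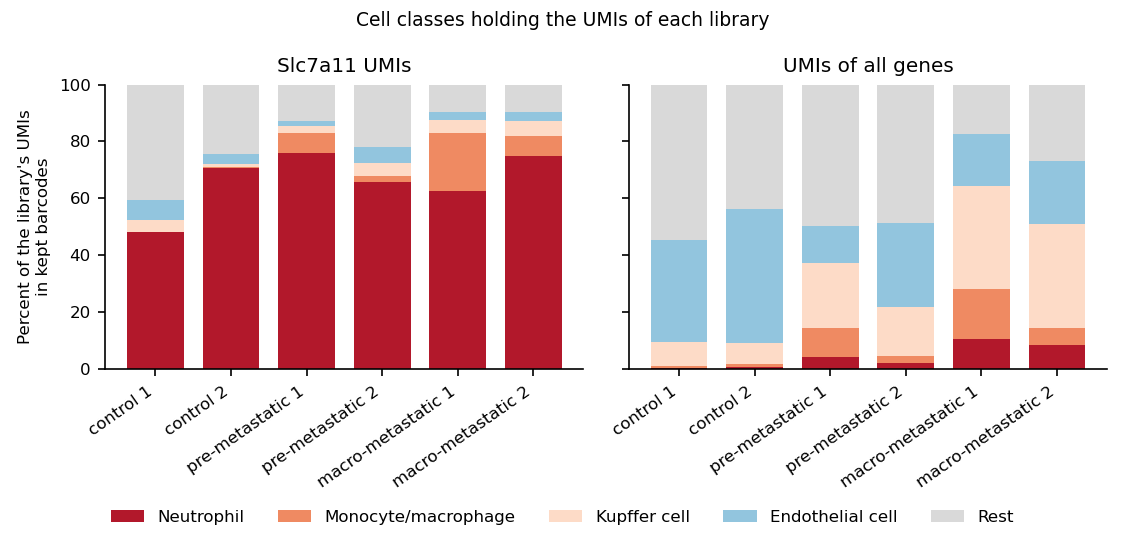
Percent of Slc7a11 UMIs (left) and of the UMIs of all genes (right) that each class holds, for each of the 6 libraries; stacked bars start at 0 and end at 100, and "Rest" is every other kept barcode. Neutrophils hold 48.3% to 76.0% of the Slc7a11 UMIs and 0.420% to 10.7% of all UMIs.

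Among the 10 fitted classes, monocytes and macrophages were second to neutrophils in the livers with metastases, where the transcript was called higher than in control and pre-metastatic livers. They held 0 and 1 Slc7a11 UMIs in the controls, or 0 and 3.88 CPM, against 22.4 and 25.1 CPM at the pre-metastatic stage and 118 and 103 CPM with macro-metastases. The groups did not overlap. The ratio of macro-metastatic to control was 56.0, with an exact 95% counting interval of 10.04 to 2212 that rests on the single control UMI among 489945. The test called the rise against control (adjusted p = 0.00066) and the rise against pre-metastatic livers, with a log2 fold change of 2.43 (SE 0.22, adjusted p = 0.000222). Against control, pre-metastatic livers missed the call (adjusted p = 0.312), although the fit with no filter on low counts gave an adjusted p of 0.00858. After thinning to 1000 UMIs, 11.03% and 7.96% of the macro-metastatic barcodes carried a Slc7a11 UMI, against 2.80% and 2.85% in pre-metastatic and 0% and 1.47% in control libraries. The unthinned shares were 46.5% and 34.1%, 7.95% and 7.94%, and 0% and 1.47%, and 0 of the 53 barcodes of control library 1 allows a share of up to 5.66% (3 counts of the total, counting error only).

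Barcodes of this class with and without Arg1, an arginine-degrading enzyme of suppressive macrophages, both held the transcript. In the macro-metastatic libraries, those with an Arg1 UMI stood at 81.1 and 84.6 CPM, and those without at 124 and 107 CPM. The value without Arg1 was higher in both libraries. The Arg1 barcodes were deeper, with medians of 11770 and 11431 UMIs against 7973 and 6640.

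Slc7a11 also rose in Kupffer cells, endothelial cells and T cells, at much lower levels. Kupffer cells, the resident liver macrophages, held 1.73 and 0.81 CPM in control, 3.41 and 7.70 at the pre-metastatic stage and 12.9 and 12.05 with macro-metastases (log2 fold change 3.46, SE 0.54, adjusted p = 0.00335). Endothelial cells held 0.66 and 0.58, then 4.90 and 5.28, then 14.9 and 13.4 CPM (4.71, SE 0.29, adjusted p = 0.000268). T cells held 1.48 and 2.10, then 4.64 and 7.12, then 18.8 and 13.7 CPM (3.19, SE 0.44, adjusted p = 0.00056). In each of the 3 classes every macro-metastatic library exceeded every control library. Conventional dendritic cells held 14.2 and 8.66 CPM in control and 23.4 and 11.2 in macro-metastatic libraries, and this difference was not called (adjusted p = 0.414). B cells, at 1.98 and 0.83 CPM in control and 9.67 and 22.4 in macro-metastatic libraries, did not pass the filter on low counts.

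The low levels outside neutrophils were set beside those of neutrophil transcripts, which were also found in these classes. As a percentage of the neutrophil level of the same library, Slc7a11 stood at 2.21% and 1.53% in macro-metastatic Kupffer cells, 2.55% and 1.70% in endothelial cells, 3.21% and 1.75% in T cells and 1.65% and 2.85% in B cells. S100a8, an abundant neutrophil gene, stood at 1.04% and 0.860% in Kupffer cells, 1.39% and 0.983% in endothelial cells, 1.29% and 0.740% in T cells and 1.27% and 0.681% in B cells. Slc7a11 exceeded S100a8 in all 8 of these values, which come from 2 libraries and share the neutrophil levels of each. The excess is given for S100a8 alone, which was not the highest neutrophil gene in monocytes and macrophages, where Wfdc21 stood above it. For the Kupffer, endothelial, T and B cells, the other neutrophil genes appear only in the plot of levels as a percentage of neutrophils. Whether Slc7a11 exceeds all of them in these classes was not tested. Monocytes and macrophages held 20.2% and 13.1% of the neutrophil level of Slc7a11, beside 6.75% and 4.25% for S100a8, 2.77% and 1.26% for S100a9, 5.14% and 3.42% for Lcn2 and 11.4% and 5.75% for Wfdc21. At least 1 UMI of a neutrophil gating marker was found in 95.5% and 89.4% of the macro-metastatic barcodes of this class and in 66.0% and 58.8% of the control ones. The part of free or shared neutrophil RNA in these values was not tested directly, but the levels were recomputed without every barcode that held such a UMI. Monocytes and macrophages then held 92.7 and 84.0 CPM of Slc7a11 in macro-metastatic libraries, from 37 and 33 UMIs among 399065 and 392788 of all genes. In control they held no Slc7a11 UMI, among only 74106 and 95782 UMIs of all genes. That 0 does not exclude a low level, and their fold change in this setting rests on it. In macro-metastatic libraries Kupffer cells held 9.72 and 9.92, endothelial cells 13.1 and 6.15, and T cells 21.1 and 14.1 CPM. B cells, too sparse in Slc7a11 to be tested, held 2.00 and 0.84 CPM in control and 9.82 and 20.3 with macro-metastases after the same step, close to their levels before it and in the range of the Kupffer, endothelial and T cell values. The calls against control held in the 4 tested classes, monocytes and macrophages, Kupffer cells, endothelial cells and T cells, with adjusted p of 0.00749, 0.00157, 0.0013 and 0.000829 in the same order.

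**Figure D3:**
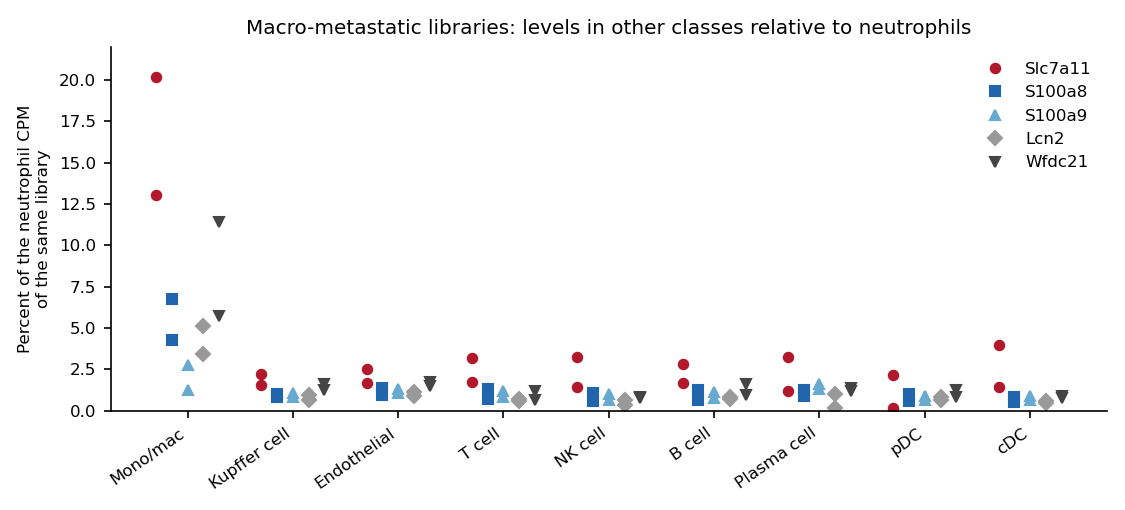
Level in each other class as a percentage of the neutrophil CPM of the same library (vertical axis, linear) for Slc7a11 and 4 neutrophil genes; each symbol is 1 of the 2 macro-metastatic libraries. Slc7a11 reaches 20.2% and 13.1% in monocytes and macrophages, where S100a8 reaches 6.75% and 4.25%.

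Over the 60 sums of 10 classes and 6 libraries, the genes whose level followed Slc7a11 most closely were Lcn2 (Pearson r = 0.903), Il1f9 (0.887), Stfa2l1 (0.873), Cstdc4 (0.872) and Slc16a3 (0.872). Stfa2l1 is a marker used in the gate. These sums share libraries and depth, neutrophils stand far above the other classes in Slc7a11, and the correlations are given as descriptions.

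Over the 8 genes and 10 classes, 63 of 80 pairs of gene and class passed the filter on low counts. In macro-metastatic against control livers, 15 pairs were called higher and 1 lower. Over all 91221 pairs of gene and class tested, 10.7% were called higher and 6.37% lower. The median log2 fold change of the 63 pairs was 0.40, beside 0.01 over all pairs. Txnrd1 gave 5 of the higher calls from 9 classes tested, Slc7a11 4 from 6, Srxn1 4 from 7 and Gclm 2 from 10. Srxn1 in T cells passed the filter on low counts only through the macro-metastatic libraries. No class gave a call for Nfe2l2, Prdx1 or Nqo1 with edgeR, although 5 of the 10 Nfe2l2 fits had an unadjusted p under 0.05. Many genes reached that level, for example 2674 of 12294 tested in Kupffer cells and 1155 of 8145 in neutrophils in the higher direction. Without barcodes holding a neutrophil marker, 13 of the 15 higher pairs could be tested again, of which 9 were still called and 4 were not. Txnrd1 in neutrophils and Srxn1 in conventional dendritic cells were not tested in that setting. Without control library 2, 9 pairs were called higher.

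**Figure D4:**
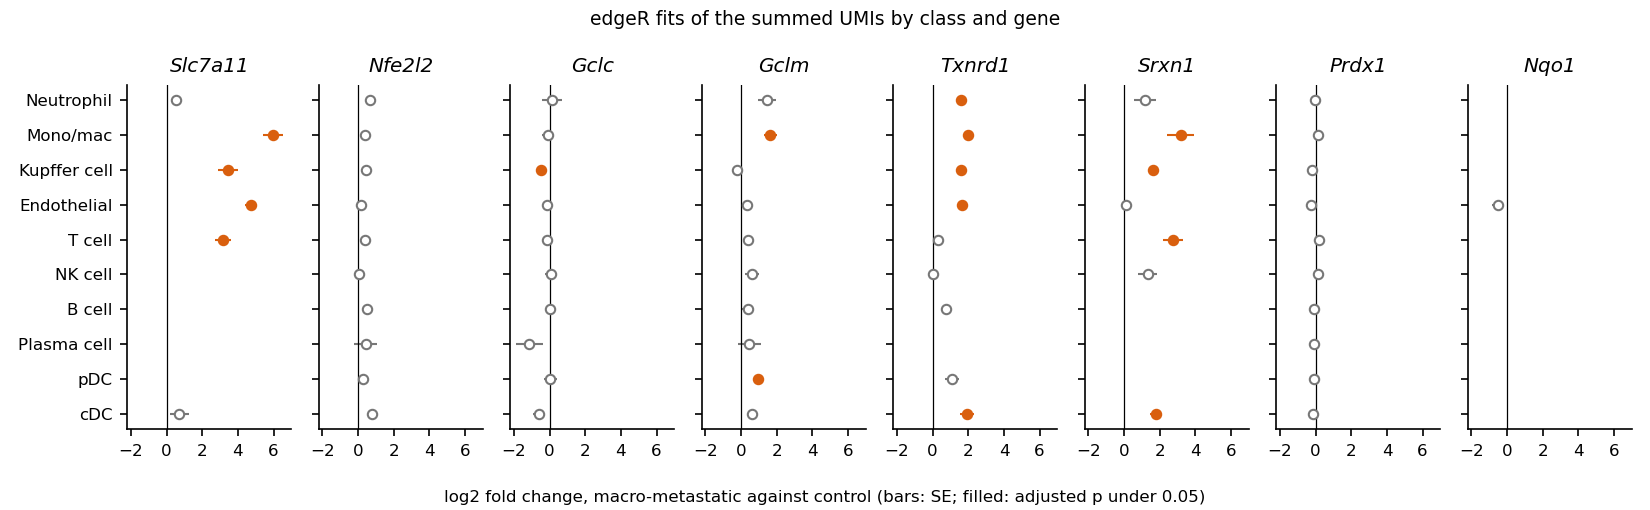
Log2 fold change of macro-metastatic against control livers (horizontal axis) for each gene and class that passed the filter on low counts; bars are the standard errors of the edgeR fit and filled points have an adjusted p under 0.05. The filled points are 15 higher calls in Slc7a11, Gclm, Txnrd1 and Srxn1 and 1 lower call, Gclc in Kupffer cells.

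Nfe2l2 itself was highest in neutrophils among the fitted classes in 5 of 6 libraries, and in control library 1 monocytes and macrophages and endothelial cells were higher. Its span on chromosome 2, 75675513 to 75704641 on the minus strand, holds 1 overlapping small nuclear RNA gene. Neutrophils held 300 and 403 CPM in control, 426 and 502 at the pre-metastatic stage and 496 and 549 with macro-metastases. Macro-metastatic values exceeded both controls, but the difference missed the call (log2 fold change 0.66, SE 0.22, adjusted p = 0.0911), and the fit with no filter on low counts gave an adjusted p of 0.0113. Endothelial cells held 313 and 308 CPM in control and 312 and 300 in macro-metastatic libraries. Kupffer cells held 224 and 240, then 299 and 247 CPM. All 10 fitted classes had a log2 fold change above 0 for this gene, from 0.07 in NK cells to 0.76 in conventional dendritic cells, and no adjusted p was below 0.0577.

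The 2 subunits of glutamate-cysteine ligase, which makes the first bond of glutathione, were called in different classes, and the difference between their changes was not tested. Gclc, the catalytic subunit on chromosome 9 at 77754535 to 77794485, was high in hepatocytes, with 329 and 441 CPM in control and 201 and 300 in pre-metastatic libraries. Among conventional dendritic cells, the barcodes scoring highest on mature markers held 325 and 667 CPM in control, 583 and 356 at the pre-metastatic stage and 289 and 769 with macro-metastases. Type 1 conventional dendritic cells held between 18.4 and 67.1 CPM in the 6 libraries, below every mature value, although the mature sums rest on 7 to 33 barcodes. Kupffer cells held 83.3 and 87.4 CPM of Gclc in control, 66.1 and 61.1 at the pre-metastatic stage and 53.9 and 53.7 with macro-metastases. This fall was called (log2 fold change -0.46, SE 0.13, adjusted p = 0.0326). The call was lost without either control library (adjusted p = 0.124 and 0.13), without either pre-metastatic library (0.0665 and 0.0699) and without macro-metastatic library 2 (0.106), with the fold change between -0.47 and -0.41.

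Gclm, the modifier subunit on chromosome 3 at 122245557 to 122270732, rose in monocytes and macrophages, from 38.7 and 27.2 CPM in control to 71.7 and 44.9 at the pre-metastatic stage and 80.5 and 96.0 with macro-metastases. The rise against control had a log2 fold change of 1.64 (SE 0.36, adjusted p = 0.0247). It missed the call without control library 1 (adjusted p = 0.0983), without control library 2 (0.188), without macro-metastatic library 1 (0.0502) or 2 (0.0649), and without barcodes holding a neutrophil marker, where the fold change fell to 0.97 (0.326). In plasmacytoid dendritic cells Gclm rose from 54.6 and 52.0 to 122 and 89.6 CPM (log2 fold change 0.95, SE 0.30, adjusted p = 0.0353). This call was kept in only 6 of 15 settings. Without each of the control and macro-metastatic libraries in turn it was lost, with the fold change between 0.81 and 1.22. It was also lost with DESeq2 (adjusted p = 0.283), with no filter on low counts (0.0615, edgeR) and with a looser (0.0505) or stricter gate (0.0867). Without barcodes holding a neutrophil marker the fold change fell to 0.54 (0.426). Kupffer cells, the highest fitted class in control at 142 and 128 CPM, stood at 104 and 99.2 CPM in macro-metastatic libraries, a difference that was not called (adjusted p = 0.298).

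Txnrd1 had the most calls by number, in 5 of 9 classes tested against control, beside 4 of 6 for Slc7a11 and 4 of 7 for Srxn1. Txnrd1 encodes cytosolic thioredoxin reductase, which returns oxidised thioredoxin to its active form. The gene lies on chromosome 10 at 82833951 to 82897712, where the protein-coding gene Eid3 overlaps it on the same strand. Kupffer cells held 63.1 and 85.4 CPM in control, 81.0 and 76.5 at the pre-metastatic stage and 188 and 199 with macro-metastases. Both macro-metastatic values lay above all 4 others, with a log2 fold change against control of 1.59 (SE 0.16, adjusted p = 0.000401). Monocytes and macrophages held 51.6 and 54.4, then 82.8 and 92.5, then 192 and 169 CPM (1.99, SE 0.25, adjusted p = 0.00226).

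Endothelial cells held 24.4 and 28.1, then 29.9 and 36.7, then 74.1 and 70.1 CPM of Txnrd1 (log2 fold change 1.67, SE 0.17, adjusted p = 0.00123). Neutrophils held 48.9 and 53.0, then 81.4 and 73.1, then 137 and 147 CPM (1.57, SE 0.28, adjusted p = 0.0094). This neutrophil call was lost without control library 1 (adjusted p = 0.0691) or 2 (0.0766), while the fold change stayed at 1.52 and 1.82. Conventional dendritic cells rose from 30.1 and 39.0 to 161 and 84.4 CPM (1.92, SE 0.38, adjusted p = 0.0162), with adjusted p of 0.113, 0.06 and 0.0509 without control library 1, control library 2 and macro-metastatic library 1, and 0.0579 without barcodes holding a neutrophil marker. The lymphoid classes were not called. NK cells held 99.8 and 84.9 CPM in control and 83.9 and 84.3 in macro-metastatic libraries (0.02, SE 0.26), and T cells held 54.5 and 52.2, then 64.9 and 64.3 CPM (0.30, SE 0.17).

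Srxn1 encodes sulfiredoxin, which repairs over-oxidised peroxiredoxins, and lies on chromosome 2 at 152105516 to 152111376 with no overlapping gene. Kupffer cells held 23.2 and 17.0 CPM in control, 18.0 and 22.7 at the pre-metastatic stage and 56.2 and 50.9 with macro-metastases. The pre-metastatic and control ranges overlapped and the macro-metastatic values lay above both (log2 fold change 1.61, SE 0.21, adjusted p = 0.00154). T cells held 6 Srxn1 UMIs in each control library, 9 and 5 at the pre-metastatic stage (2.45 and 1.70 CPM) and 18 and 25 with macro-metastases (12.98 and 6.87 CPM). This rise was called (2.73, SE 0.55, adjusted p = 0.00451). In T cells Srxn1 passed the filter on low counts only through the macro-metastatic libraries, so the call is not independent of that filter. The fit with no filter also called it.

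Monocytes and macrophages held 3 Srxn1 UMIs in the controls, or 12.9 and 0 CPM, against 9.80 and 19.7 at the pre-metastatic stage and 48.8 and 47.6 CPM with macro-metastases. The ratio of macro-metastatic to control was 7.92, with an exact 95% counting interval of 2.70 to 38.5. The adjusted p of 0.033 rose above the threshold without control library 1 (0.0636), control library 2 (0.198), macro-metastatic library 1 (0.0749) or macro-metastatic library 2 (0.0541), and without barcodes holding a neutrophil marker (0.0734). Conventional dendritic cells rose from 14.2 and 8.66 to 37.9 and 33.9 CPM of Srxn1 (log2 fold change 1.79, SE 0.36, adjusted p = 0.0165). That call was lost without control library 1 (0.0508), control library 2 (0.0776) or macro-metastatic library 1 (0.0622). In endothelial cells Srxn1 stood at 15.9 and 14.1 CPM in control and 17.5 and 10.5 in macro-metastatic libraries and was not called (0.10, SE 0.25), and whether its change differs from that of Txnrd1 there was not tested. The genes nearest to Srxn1 over the 60 sums were Jdp2 (r = 0.794), Nfkbia (0.792), Ier3 (0.770), Pxn (0.766) and Cd63 (0.760).

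Prdx1, the peroxiredoxin that breaks down hydrogen peroxide with electrons from thioredoxin, was not called in any of 10 classes between groups with edgeR. None of its 30 fits in these comparisons had an unadjusted p under 0.05. Relative to B cells, 0 of 9 classes were called, and 1 was higher at an unadjusted p under 0.05. It lies on chromosome 4 at 116685544 to 116700822, and 32.8% of its 31-base words near the 3′ end of its transcripts are shared with 3 other annotated genes, so its counts are uncertain where reads could fall on either. Hepatocytes held 3967 and 4067 CPM in control and 5209 and 4893 in pre-metastatic libraries. Kupffer cells held 1170 and 1097 CPM in control and 871 and 863 in macro-metastatic libraries (log2 fold change -0.18, SE 0.13, adjusted p = 0.339). Neutrophils were the lowest fitted class, between 74.3 and 105 CPM in the 6 libraries. Over all kept barcodes Prdx1 stood at 1016 and 815 CPM in control and 606 and 582 in macro-metastatic libraries, while the share of its UMIs held by hepatocytes moved from 41.6% and 32.2% to 0.0972% and 2.22%.

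Nqo1, the quinone reductase often used as a readout of NRF2, stood at or below 9.75 CPM in every fitted immune class. It lies on chromosome 8 at 107388225 to 107403206. Endothelial cells, the only class in which it could be tested, held 7.80 and 8.25 CPM in control, 9.31 and 4.35 at the pre-metastatic stage and 4.71 and 5.04 with macro-metastases (log2 fold change -0.50, SE 0.34, adjusted p = 0.298). Hepatocytes held 24.7 and 22.1 CPM in control and 26.2 and 29.6 in pre-metastatic libraries. These 2 classes held between 45.1% and 80.4% of the Nqo1 UMIs of a library. The genes nearest to Nqo1 over the sums were Mmrn2 (r = 0.711), Unc45b (0.708), Yap1 (0.673), Msrb3 (0.669) and F8 (0.662).

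**Figure D5:**
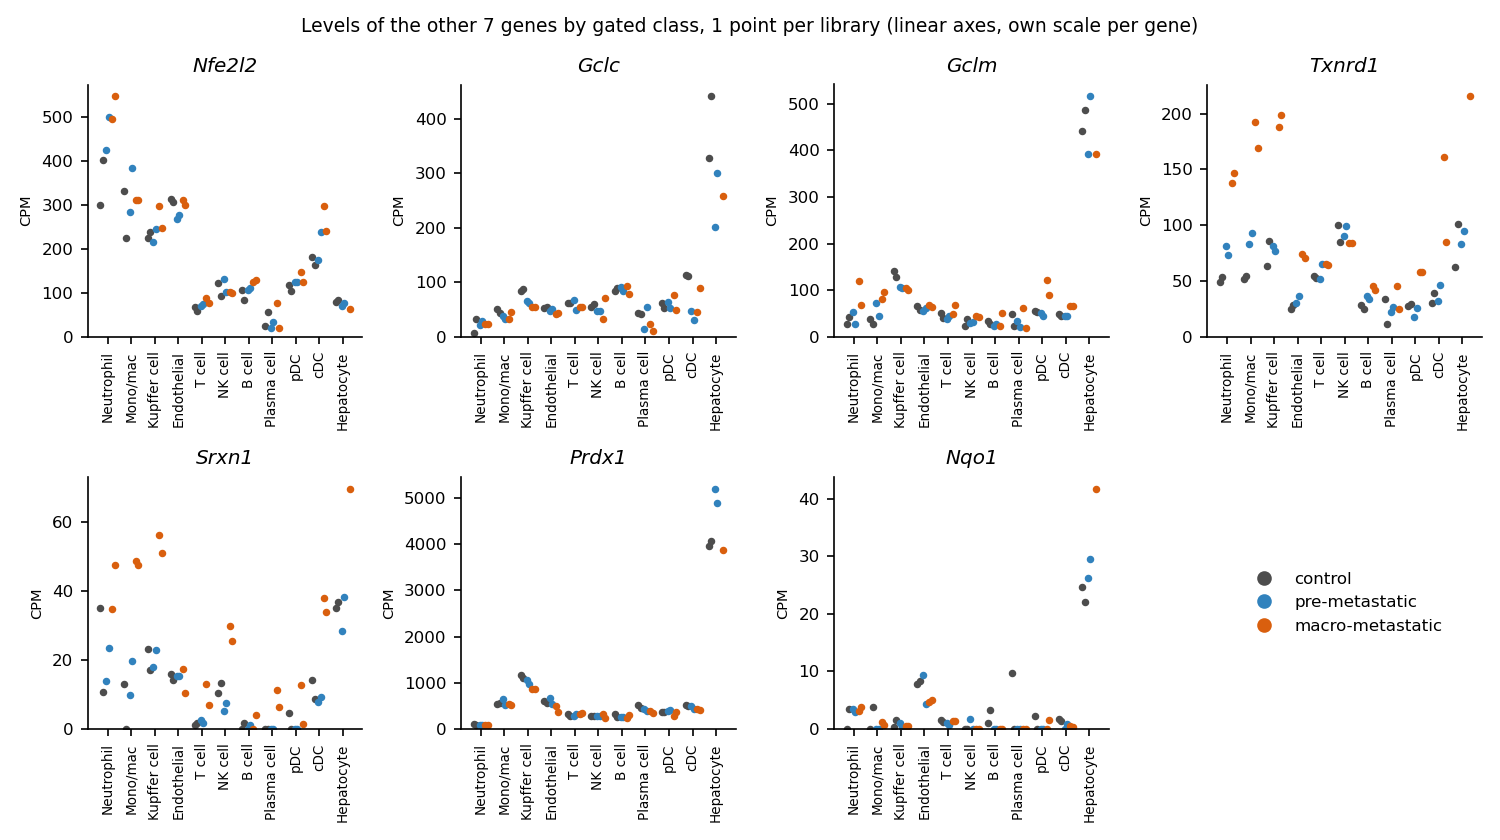
Levels in CPM (vertical axes, linear from 0, with a scale of its own for each gene) of the other 7 genes in the 10 fitted classes and in hepatocytes; each point is 1 library with at least 20 barcodes of the class, coloured by group. Txnrd1 in Kupffer cells lies at 188 and 199 CPM in macro-metastatic libraries and at or below 85.4 CPM in the other 4, and Prdx1 in neutrophils stays between 74.3 and 105 CPM.

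In pre-metastatic against control livers few of these genes were called. Of the 63 pairs, 1 was called higher and 0 lower, with 7 and 3 at an unadjusted p under 0.05 in edgeR. At that level lay, for example, 559 higher and 740 lower of 12294 genes in Kupffer cells. In neutrophils they numbered 369 and 193 of 8145. Over all pairs tested 0.173% were called higher and 0.0241% lower. The called pair was Slc7a11 in endothelial cells (log2 fold change 3.05, SE 0.30, adjusted p = 0.00694). It was lost without control library 1 (adjusted p = 0.0751), control library 2 (0.139) or pre-metastatic library 2 (0.0772), and without barcodes holding a neutrophil marker (0.141). DESeq2 also called Slc7a11 in endothelial cells and, in addition, called Gclc lower in conventional dendritic cells (-1.57, adjusted p = 0.0168), where edgeR did not (0.163). The mature barcodes of that class, which are high in Gclc, numbered 33 of 91 and 10 of 114 in control. At the pre-metastatic stage they numbered 10 of 388 and 17 of 447. The part of this change in mix in the lower sum was not tested.

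Macro-metastatic against pre-metastatic livers gave 17 pairs higher and 0 lower, beside 10.1% and 5.19% over all pairs tested. The comparison shares its macro-metastatic libraries with the one against control. Txnrd1 gave 6 of the calls from 9 classes tested, Srxn1 5 from 7, Slc7a11 4 from 6 and Gclm 2 from 10. Srxn1 in T cells and in NK cells passed the filter on low counts only through the macro-metastatic libraries, so these calls are not independent of that filter. In Kupffer cells the log2 fold change was 1.48 for Txnrd1 (SE 0.15, adjusted p = 0.000414) and 1.59 for Srxn1 (SE 0.19, adjusted p = 0.000952). In monocytes and macrophages it was 1.24 for Txnrd1 (SE 0.18, adjusted p = 0.00237). Without pre-metastatic library 1 the 17 higher calls fell to 5.

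Each change was also set against the change of B cells from the same libraries, which removes what moved in both. Slc7a11, Srxn1 and Nqo1 could not be compared in this way because B cells held too few of their UMIs, which left 44 of 72 pairs. None was called in either direction by edgeR, with 7 higher and 1 lower at an unadjusted p under 0.05, and 1.82% and 1.24% were called over all 64504 pairs tested. At that unadjusted level lay, for example, 1034 higher and 678 lower of 8171 genes in Kupffer cells. Txnrd1 came closest, with a log2 difference of 0.88 in Kupffer cells (SE 0.28, adjusted p = 0.0895) and 1.22 in monocytes and macrophages (SE 0.36, adjusted p = 0.113). In the B cells themselves Txnrd1 went from 28.8 and 24.8 to 45.1 and 41.5 CPM (0.73, SE 0.28, adjusted p = 0.0883).

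Genes of the wider pathway were called in every fitted class, B cells included. Among 10 genes of amino acid transport and the ATF4 response, 74 of 100 pairs of gene and class were tested in macro-metastatic against control livers, of which 33 were called higher and 2 lower, with a median log2 fold change of 1.05. Over all pairs tested in this comparison 10.7% were called higher and 6.37% lower. Relative to B cells, 0 of 53 pairs of this list were called higher and 3 lower by edgeR, with 7 and 7 at an unadjusted p under 0.05. Over all pairs tested relative to B cells, 1.82% were called higher and 1.24% lower. Atf4 and Slc3a2, the heavy chain that carries the Slc7a11 protein to the cell surface, were called higher in 10 of 10 classes. In neutrophils Slc3a2 rose from 62.8 and 77.8 to 196 and 230 CPM (log2 fold change 1.67, SE 0.31, adjusted p = 0.0116), and in B cells from 62.5 and 84.2 to 213 and 205 CPM (1.55, SE 0.20, adjusted p = 4.8e-05). In neutrophils the heavy chain was called and the light chain was not, and the difference between them was not tested. Ddit3, a stress factor downstream of ATF4, was higher in 5 of 9 classes.

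Among 9 partners and regulators of NRF2, 28 of 85 tested pairs were called higher and 0 lower, beside 10.7% and 6.37% over all pairs. Set against B cells, 2 of 76 were called higher and 0 lower, beside 1.82% and 1.24% over all pairs tested in that way. Sqstm1, whose protein draws KEAP1 into autophagy and which is itself a target of NRF2, was higher in 10 of 10 classes. In Kupffer cells it went from 406 and 415 to 943 and 927 CPM (log2 fold change 1.39, SE 0.15, adjusted p = 0.000686), and in B cells from 243 and 231 to 440 and 459 CPM. Maff, a small MAF partner, was higher in 9 of 9 classes, with the largest fold change in endothelial cells, where it went from 12.5 and 15.1 to 232 and 261 CPM (4.37, SE 0.41, adjusted p = 0.000906). Bach1, a repressor at the same elements, was higher in 5 of 10 classes. Keap1 and Cul3, which degrade NRF2, were called in 0 of 9 and 0 of 10 classes by edgeR, with 1 unadjusted p under 0.05 each, higher for Keap1 and lower for Cul3.

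Of 14 further textbook NRF2 targets, 55 of 120 tested pairs were called higher and 4 lower, beside 10.7% and 6.37% over all pairs. Against the change in B cells, 3 of 99 were called higher and 3 lower, beside 1.82% and 1.24% over all pairs tested in that way. Ftl1 and Fth1, the ferritin chains, and Taldo1 and Tkt of the pentose phosphate pathway were each higher in 10 of 10 classes. Hmox1, which breaks down haem, was higher in 6 classes and lower in Kupffer cells, from 3350.5 and 2777 CPM in control to 1997 and 1933 at the pre-metastatic stage and 1503 and 2024 with macro-metastases (log2 fold change -0.60, SE 0.17, adjusted p = 0.0332). Relative to B cells the Kupffer difference of Hmox1 was -2.54 (SE 0.35, adjusted p = 0.0014). This value combines the change in Kupffer cells, -0.60, with that in the B cells, which is not given here.

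Among 13 genes of glutathione synthesis and use, 20 of 86 tested pairs were called higher and 6 lower, beside 10.7% and 6.37% over all pairs, so the lower calls were near the background. In the comparison with B cells, 5 of 67 were called higher and 0 lower, beside 1.82% and 1.24% over all pairs tested in that way. Gpx1, a glutathione peroxidase, was higher in 8 of 10 classes, and relative to B cells in Kupffer cells, T cells and NK cells. Among 12 thioredoxins, peroxiredoxins and dismutases, 22 of 111 pairs were called higher and 17 lower, beside the same 10.7% and 6.37%. Relative to B cells, 3 of 96 were called higher and 0 lower, beside the same 1.82% and 1.24%. Txnip, an inhibitor of thioredoxin, was lower in 10 of 10 classes, as in Kupffer cells from 722 and 845 to 234 and 250 CPM (log2 fold change -1.49, SE 0.13, adjusted p = 0.000252). Catalase (Cat) was lower in 6 of 9 classes. In pre-metastatic against control livers, no gene of the 5 lists was called in any class by edgeR. Over all pairs tested in that comparison, only 0.173% were called higher and 0.0241% lower, so 0 calls lay near the background. At an unadjusted p under 0.05, 27 pairs of these lists were higher and 19 lower. Among all genes, 559 of 12294 in Kupffer cells were higher at that level and 740 lower, and in neutrophils 369 and 193 of 8145.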

How the data were processed

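The deposited matrices hold UMI counts per gene and barcode, not normalized. Per the submitters' processing notes, CASAVA 1.8 and UMI-tools were used with the build mm10, while aligner and annotation are unknown here (not given in the sources used here). A barcode was kept if it had 300 or more genes and if mitochondrial UMIs made up less than 25%. Each was scored as the mean of ln(1 + counts per 10000) over 8 markers of a class and entered the class of the highest score if 3 markers were detected and the score was 1.5 times the next. Within 10% of that margin lay 2505 barcodes. No doublet caller was run. The 8912 ungated barcodes missed the margin or the marker minimum, and many gated barcodes of other classes still held a UMI of a neutrophil marker. UMI counts were summed per library and class and tested with edgeR 4.0.16 (R 4.3.3; quasi-likelihood test, filterByExpr, TMM), with all 6 libraries in each fit, 3 residual degrees of freedom, Benjamini-Hochberg adjustment over all genes of a class, and a call at an adjusted p under 0.05. The comparison with B cells used a class by group term with library as block. Neutrophils held between 143253 and 9291759 UMIs per library and monocytes and macrophages between 232503 and 14998051, so their control values are less precise than their macro-metastatic ones. Other sums were also thin. Plasma cells held 205149 and 270715 UMIs in control, and plasmacytoid dendritic cells 156025 in macro-metastatic library 1.

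The 8 genes and the pathway lists were chosen with earlier results of these data known. All 8 genes are given. Of the pathway lists, the called genes with the smallest adjusted p were eligible to be named, up to 4 per list, class and comparison; Keap1, Cul3, Ddit3, Bach1 and Cat were named after their values were seen. Likeness was ranked by Pearson correlation of log2(CPM + 1) over genes with a mean of at least 10 CPM. Gene positions come from GENCODE vM21 on mm10 and promoters from RefSeq. The test was checked on simulated counts. In total 15 alternative settings were run.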

Additional observations from a re-analysis of the deposited data

Results flagged for a closer look

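Basophils and mast cells lay outside the comparisons because some libraries held fewer than 20 such barcodes, but their macro-metastatic levels exceeded those of the controls. Slc7a11 had 0 UMIs in the control and pre-metastatic libraries and stood at 174 and 102 CPM in the macro-metastatic ones, from 29 and 33 UMIs. Srxn1 stood at 35.5 and 0 CPM in control and at 198 and 356 CPM in macro-metastatic libraries. Nfe2l2 stood at 35.5 and 139 CPM in control and at 216 and 161 CPM in macro-metastatic libraries. The controls held 11 and 29 such barcodes, and no test was run. At least 1 neutrophil marker UMI was found in 88.1% and 55.8% of the macro-metastatic barcodes and in 41.4% of those of control library 2. The part of neutrophil RNA in these levels was not tested.

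Stellate cells and fibroblasts, with 4 and 24 control barcodes, were also outside the comparisons. Txnrd1 stood at 55.9 and 52.7 CPM in control and at 79.3 and 82.2 CPM in macro-metastatic libraries. Srxn1 had 0 UMIs in control and stood at 37.2 and 75.5 CPM. Prdx1 went from 391 and 487 to 793 and 671 CPM. No test was run on these sums, and the genes named were flagged in the same way. At least 1 neutrophil marker UMI was found in 83.7% and 66.9% of the macro-metastatic barcodes and in 4.17% of those of control library 2.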

How the results depend on the processing

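The 15 pairs higher in macro-metastatic than in control livers became 14 with DESeq2, 15 with RLE size factors, 21 with no filter on low counts, 9 without barcodes holding a neutrophil marker (a setting chosen after seeing the data, in which 13 of the 15 could be tested again and 4 of those lost the call) and 9 to 16 when each library was left out in turn. The 1 lower pair became 0 with no filter, 0 with a looser gate and 0 to 1 when a library was left out. In pre-metastatic against control livers, the 1 higher pair became 4 with no filter, 0 without barcodes holding a neutrophil marker and 0 to 1 when a library was left out, and the 0 lower pairs became 1 with DESeq2, 1 with no filter and 0 to 1 when a library was left out. In macro-metastatic against pre-metastatic livers, the 17 higher pairs became 12 with DESeq2, 22 with no filter, 12 without barcodes holding a neutrophil marker (11 of the 14 tested again, and Gclc in conventional dendritic cells as a new call, adjusted p = 0.0365 by edgeR) and 5 to 18 when a library was left out, with 5 without pre-metastatic library 1. Relative to B cells, the 0 higher pairs became 1 with a looser gate, and the 0 lower pairs became 1 with no filter and 0 to 1 when a library was left out. Thinning to 2000 rather than 1000 UMIs moved the macro-metastatic mean share of barcodes with a Slc7a11 UMI from 45.1% to 62.9% in neutrophils, from 9.49% to 17.7% in monocytes and macrophages and from 1.34% to 2.62% in B cells. No called pair changed sign under an alternative. Of 3351 values of pairs under the alternatives, 236 had the other sign than the value reported, and none of these was called in either fit; Gclc in conventional dendritic cells, macro-metastatic against control, went from -0.62 to 0.36 without barcodes holding a neutrophil marker. The cause of these moves was not tested, apart from the smaller number of libraries or barcodes that some settings leave, and a group left with 1 library is assumed to vary like the others.

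A replicate block gave 17 higher and 1 lower pair against control and 20 higher pairs against pre-metastatic livers. It added Nfe2l2 (adjusted p = 0.034, edgeR) and Gclm (0.0345) in neutrophils against control. Over the genes of each class, deviations of same-numbered libraries correlated between -0.10 and 0.43. The highest values were 0.43 in neutrophils and 0.20 in endothelial cells, both between pre-metastatic and macro-metastatic libraries. Because the values differ between classes, they do not decide whether the numbers pair the libraries. DESeq2 and the block were not run for the comparison with B cells.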

Other observations

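Mature conventional dendritic cells carried Slc7a11 as well as Gclc. Their Slc7a11 level was 41.4 and 78.5 CPM in control, 137 and 49.1 at the pre-metastatic stage and 144 and 103 with macro-metastases. Type 1 conventional dendritic cells held between 2.63 and 8.34 CPM in the 6 libraries, below every mature value. Type 2 ones held 0 to 13.1 CPM in 5 libraries and 55.5 CPM in macro-metastatic library 1, above the lowest mature values. The mature sums rest on 33 and 10, 10 and 17, and 7 and 26 barcodes, and no test was run.

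Relative to B cells of the same libraries, Mgst1, a microsomal glutathione transferase, rose by a log2 difference of 1.96 in Kupffer cells (adjusted p = 0.00412, edgeR) and 1.79 in monocytes and macrophages (adjusted p = 0.0273). Slc7a5, a transporter of large neutral amino acids, was lower relative to B cells in endothelial cells, with a log2 difference of -2.73. Such differences combine the changes of both classes, and the change within each is not given here.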
